A study of Homo sapiens with 6 samples.

Results

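The genes TCEA1 and AFF1, which act in transcription elongation, carried 3 of the 838 H3K27ac regions that were listed as lower after JQ1 in human multiple myeloma cells. The mark H3K27ac, found on histones at active promoters and enhancers, was measured by chromatin immunoprecipitation and sequencing in KMS-11, KMS-12 and RPMI8226, established lines of malignant plasma cells that the labels call WT. Each line was represented by 1 sample grown with DMSO, the solvent, and 1 sample grown with 1 µM JQ1 for 72 h, and nothing says whether a line's samples came from separate cultures. The genes were chosen by the deposited fold changes themselves, as elongation genes with listed regions. Their values are therefore a description, and no test was made. Any region that overlapped TCEA1 or AFF1 was taken as theirs, which gave 2 regions in TCEA1 and 1 in AFF1, and no further region had either gene as its nearest.

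Each deposited value was taken to be log2 of JQ1 signal over DMSO signal within a line. The file writes neither the log base nor the numerator, and statements that the mark was lower after JQ1 rest on that reading. All 838 regions had 3 values below 0, and in all 838 the stated number of lines in common (2 or 3) equalled the number of values below -0.5. So the list holds only regions past -0.5 in at least 2 lines, and the direction in those lines was fixed by that limit. In the 625 regions listed for 2 lines the third value was below 0 as well, and the file does not say whether this was a further condition. Depth is unknown because no counts were given. With 1 sample per line and treatment there is no replicate error on any value, so differences between lines or regions have no replicate check. Fold changes give no level of the mark, so the labelled cell type could not be checked. Of 10 plasma cell markers, IRF4, XBP1 and MZB1 had a listed region, and of 9 markers of other blood and stromal cells 0 had one, where 4.11% of all protein coding genes had one. At that share, 0 of 9 says nothing about those markers, and a listed fold at 3 of 10 plasma cell markers does not check the cell type either.

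RNA polymerase II pauses soon after it starts a gene and is released into productive elongation by P-TEFb, a kinase made of CDK9 and a cyclin T. BET proteins bind acetylated histones and promote this step, and JQ1 occupies their acetyl-lysine pocket. AFF1, also called AF4, is a scaffold of the super elongation complex, which joins P-TEFb to ELL proteins, and is known as a fusion partner of KMT2A in acute leukaemia. TCEA1 encodes the elongation factor TFIIS, which lets a backtracked polymerase cut its own transcript and move on.

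The AFF1 region spanned chr4:86935159-86936230 (hg38) and overlapped 2 genes that are read in opposite directions. AFF1 runs from 86935011 to 87141039 on the plus strand. The region began 148 bp and ended 1219 bp downstream of the gene's first start, within the first 0.592% of its length. Its far end also held a start of C4orf36, an open reading frame gene on the minus strand, 26 bp from the region's edge. The first AFF1 start itself, the start of the antisense lncRNA gene AFF1-AS1 161 bp upstream of it and another C4orf36 start 279 bp upstream of it were outside the listed interval. RefSeq gives AFF1 a second start 72.26 kb downstream of the first, and no listed region lay there. The table does not say whether that start was tested or failed the filter. Reads over the region cannot be divided between AFF1 and C4orf36.

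The sequences shown are those around the AFF1 start beside the region, the AFF1 start without a region and the C4orf36 start that lay inside the region. Each runs 5′ to 3′ in the direction of its gene, from 250 bases before the start to 50 after it, from RefSeq (GRCh38.p14). In the AFF1 lines, capitals mark GC boxes, the letters GGGCGG on either strand. In the C4orf36 line, capitals mark the 76 bases inside the H3K27ac region.
AFF1 first start, chr4:86934761-86935060, plus strand: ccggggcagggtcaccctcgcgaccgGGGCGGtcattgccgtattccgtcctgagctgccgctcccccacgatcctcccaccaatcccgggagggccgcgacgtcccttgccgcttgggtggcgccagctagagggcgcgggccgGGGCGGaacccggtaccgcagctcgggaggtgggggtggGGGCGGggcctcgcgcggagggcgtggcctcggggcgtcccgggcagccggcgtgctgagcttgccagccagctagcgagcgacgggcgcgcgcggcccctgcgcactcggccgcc
AFF1 second start, chr4:87007021-87007320, plus strand: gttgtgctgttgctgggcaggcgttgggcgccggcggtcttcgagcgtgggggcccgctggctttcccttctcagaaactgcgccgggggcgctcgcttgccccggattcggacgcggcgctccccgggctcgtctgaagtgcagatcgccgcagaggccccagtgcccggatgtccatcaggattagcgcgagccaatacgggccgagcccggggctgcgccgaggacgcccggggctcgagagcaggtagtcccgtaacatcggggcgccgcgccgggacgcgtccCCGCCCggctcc
C4orf36 start, chr4:86936155-86936454, minus strand: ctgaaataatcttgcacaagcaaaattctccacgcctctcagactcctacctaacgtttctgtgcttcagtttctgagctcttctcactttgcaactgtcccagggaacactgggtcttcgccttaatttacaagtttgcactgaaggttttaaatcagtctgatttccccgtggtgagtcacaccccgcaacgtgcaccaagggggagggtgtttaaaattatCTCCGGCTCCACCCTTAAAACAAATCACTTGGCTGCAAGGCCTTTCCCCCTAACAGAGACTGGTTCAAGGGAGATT

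The window at the first AFF1 start was 77.7% G and C and held 42 CpG dinucleotides and 3 GC boxes, and the window at the second start was 72.7% G and C with 41 CpG and 1 GC box. Both were richer than the median of the 35116 RefSeq promoter windows of the same length, which had 58.7% G and C and 14 CpG. Those windows do not cover all genes and include none for TCEA1. The C4orf36 window differed from both AFF1 windows, with 47.3% G and C, 7 CpG and 0 GC boxes. At least 1 GC box was found in 45.0% of the 35116 promoter windows. The ETS core GGAA, searched on both strands and free to overlap other motifs, occurred 2 times at the first AFF1 start, 1 time at the second and 3 times at C4orf36, and 95.5% of all windows held it. None of these 3 windows held the E-box CACGTG or the TATA box TATAAA, which 7.26% and 11.5% of all windows held. These matches describe letters only, and the listed interval began after the window of the first AFF1 start.

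At AFF1 the fold was strongest in KMS-11. The authors' deposited table gave the region -0.94 for KMS-11, -0.48 for KMS-12 and -0.51 for RPMI8226. If these are log2 values, signal was 48.1%, 28.1% and 29.6% lower. KMS-11 stood apart, and the values of KMS-12 and RPMI8226 were close to each other. RPMI8226 was just inside the limit of -0.5, by 0.0062, and KMS-12 just outside it, by 0.024, so AFF1 was listed for 2 lines on a narrow margin. Over all listed regions, 83.4% were past -0.5 for KMS-11, 77.7% for KMS-12 and 64.3% for RPMI8226. Counted from the lowest value, AFF1 ranked 141 of 838 for KMS-11, 657 for KMS-12 and 532 for RPMI8226. It was thus lower than the line's median of -0.66 in KMS-11 and above the medians of -0.69 and -0.56 in the other lines. Its mean over the 3 lines, -0.64 ± 0.26 (SD over n = 3 lines, which are not replicates), lay beside the median of all regions, -0.63.

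TCEA1 carried 2 regions near the same end of the gene, and both lay inside it. The gene spans 53966556 to 54022448 of chromosome 8. The readthrough gene LYPLA1-TCEA1, whose name puts LYPLA1 first, extends to LYPLA1 at higher coordinates, so TCEA1 is read towards lower coordinates and starts at 54022448. The nearer region (chromosome 8, 54021545 to 54022256) lay 192 to 903 bp downstream of that start, and the further one (54019875 to 54020579) lay 1869 to 2573 bp downstream. A stretch of 966 bp separated them, and both fell within the first 4.60% of the gene. They were 711 and 704 bp wide, narrower than the median listed region of 1164 bp. Of the nearer region, 224 bp also lay in the lncRNA gene LOC133039971, and both lay inside the annotated span of LYPLA1-TCEA1, so their reads cannot be assigned to 1 of these genes.

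The further region, deeper in the gene, had the stronger fold in every line. In the authors' deposited table it had -1.10 for KMS-11, -2.43 for KMS-12 and -1.06 for RPMI8226, or 53.3%, 81.4% and 52.1% less signal if log2. KMS-12 was far below the other lines, which differed by little. The region ranked 6 of 838 in KMS-12, 28 in RPMI8226 and 71 in KMS-11. All 3 values were below -1, a fold that 13.5% of listed regions passed for KMS-11, 21.2% for KMS-12 and 4.42% for RPMI8226, and only 5 regions (0.597%) passed in all 3 lines. The other 4 of these regions were assigned to DDIT4, HAGHL, ADGRL1 and IRF4. The KMS-12 value minus the mean of the other lines was -1.35 at this TCEA1 region, rank 15 of 838 from the lowest. Only 13 regions of the list were below -2 in KMS-12. Values of KMS-12 were spread more widely over all 838 regions, with an SD of 0.45 against 0.29 for KMS-11 and 0.27 for RPMI8226.

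The region nearer to the TCEA1 start was listed for KMS-12 and RPMI8226 only. The authors' deposited table held -0.32 for KMS-11, -1.14 for KMS-12 and -0.80 for RPMI8226, or 19.9%, 54.5% and 42.6% less signal if log2. KMS-12 was again the lowest line, and KMS-11, 0.18 short of the limit, was the highest. The ranks were 767 of 838 for KMS-11, 123 for KMS-12 and 137 for RPMI8226. TCEA1 therefore had 1 region past -0.5 in all 3 lines, as had 25.4% of all listed regions, and 1 past it in 2 lines. Means over the lines were -1.53 ± 0.78 for the further region and -0.75 ± 0.41 for the nearer one (SD over n = 3 lines).

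**Figure D1:**
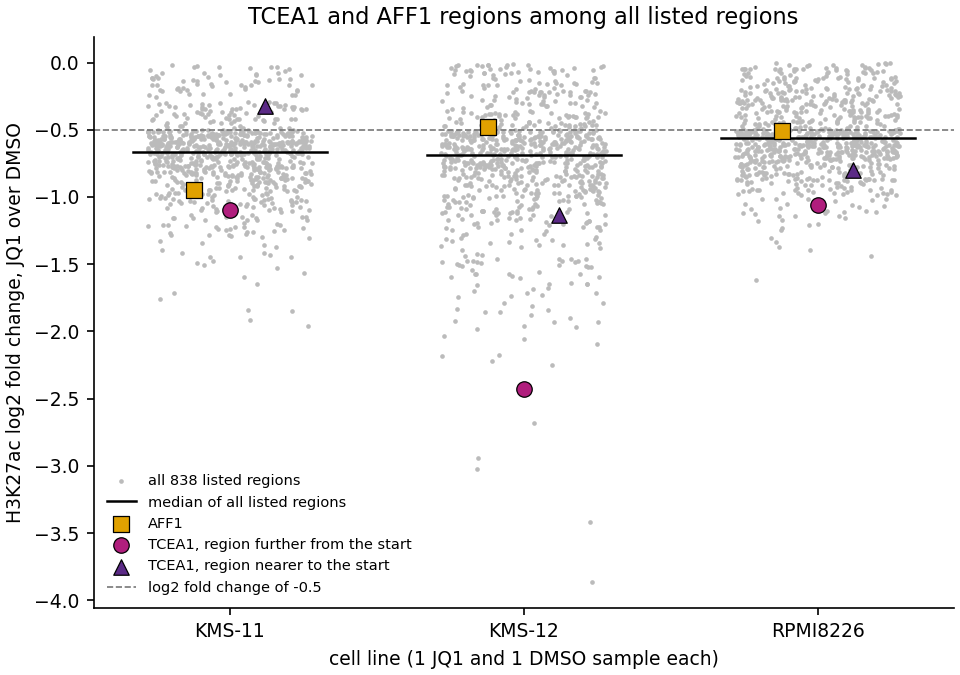
H3K27ac log2 fold changes of JQ1 over DMSO (y axis) in each cell line (x axis) for all 838 listed regions (grey), with the AFF1 region (square) and both TCEA1 regions (circle, further from the start; triangle, nearer) marked; black bars are line medians and the dashed line is -0.5. The further TCEA1 region lies at -2.43 in KMS-12, while AFF1 lies at -0.48 there and at -0.94 in KMS-11.

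The order of the lines differed between the genes and also between the TCEA1 regions. KMS-12 had the lowest value at both TCEA1 regions. Of the other lines, KMS-11 was lower than RPMI8226 at the further region and higher at the nearer one. At AFF1, KMS-11 was lowest, and KMS-12 (-0.48) was highest but close to RPMI8226 (-0.51). In KMS-11 the AFF1 value lay between those of the TCEA1 regions, while in KMS-12 and RPMI8226 AFF1 was above both. Whether these differences exceed the variation between cultures was not tested, since no line had a second sample per treatment.

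**Figure D2:**
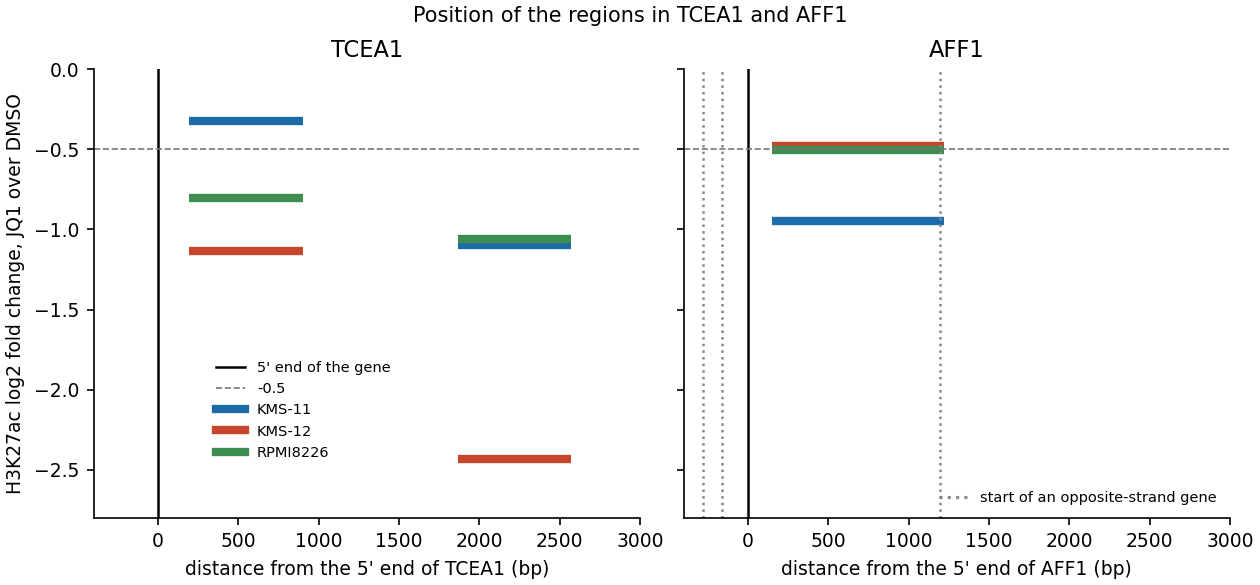
H3K27ac log2 fold change of JQ1 over DMSO (y axis) against distance from the 5′ end in the direction of transcription (x axis, bp) for TCEA1 (left) and AFF1 (right); each bar spans 1 listed region in 1 line, and dotted lines mark starts of opposite-strand genes at AFF1. The TCEA1 region 1869 to 2573 bp downstream is lower in every line than the one 192 to 903 bp downstream.

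How far neighbouring regions can differ was described over the 15 pairs of listed regions at most 2 kb apart. The further TCEA1 region was lower than the nearer one by 0.78 for KMS-11, 1.29 for KMS-12 and 0.26 for RPMI8226, as differences of log2 fold change. Among the other 14 pairs the median absolute difference was 0.25 for KMS-11, 0.42 for KMS-12 and 0.27 for RPMI8226, and the highest were 0.88, 0.90 and 1.00. The TCEA1 pair had the widest difference of the 15 in KMS-12, the second widest in KMS-11 and ranked 10 in RPMI8226. Its lines differed in 1 direction, as did those of 6 of the 15 pairs, itself included. TCEA1 was 1 of 31 genes with 2 or more listed regions, out of 1029 genes with any.

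**Figure D3:**
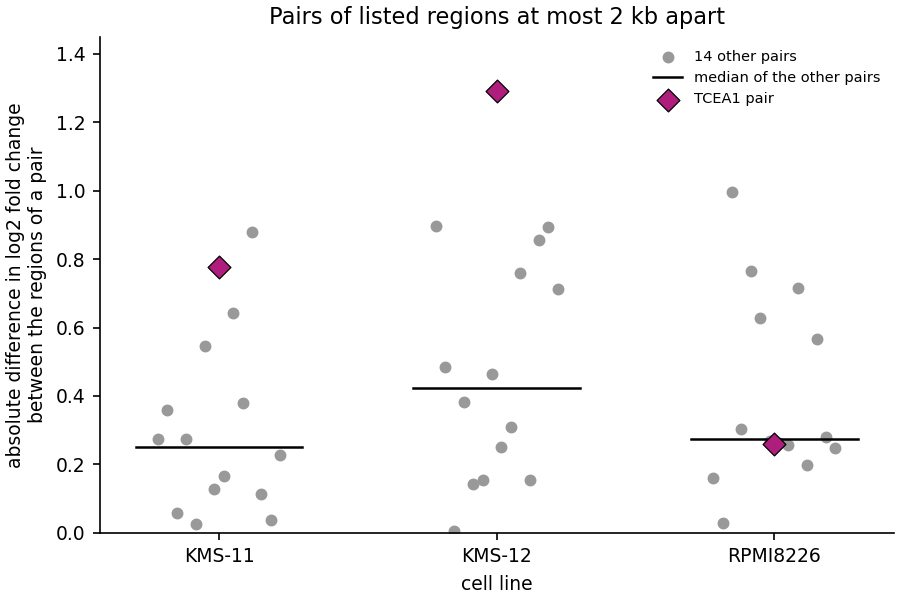
Absolute difference in log2 fold change between the regions of a pair (y axis) for pairs of listed regions at most 2 kb apart, by cell line (x axis), with the TCEA1 pair as diamonds, the other 14 pairs as grey points and their median as a bar. The TCEA1 pair is above all others in KMS-12, at 1.29, and near the median in RPMI8226, at 0.26.

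Position alone was compared for the 822 listed regions on chromosomes with annotated starts in the RefSeq promoter table, which leaves out those of TCEA1. That table is not complete. It holds no start of DOT1L, for example, whose region crosses the gene's boundary but counted as over 3 kb from a start, so the groups by position are approximate. A start lay inside 400 of them (48.7%), the AFF1 region among them through C4orf36. Another 156 (19.0%) lay within 3 kb downstream of the nearest start without holding one. TCEA1's regions have that placement by TCEA1's own boundary. The nearer region also contains a boundary of LOC133039971. The direction of that gene was not determined, so whether the nearer region holds a start is not known. The 156 downstream regions had median log2 fold changes of -0.65 for KMS-11, -0.68 for KMS-12 and -0.55 for RPMI8226. Where a start lay inside, the medians were -0.66, -0.66 and -0.57 in the same order. Shares below -1 were 8.33%, 24.4% and 5.13% downstream, against 11.5%, 16.75% and 3% with a start inside. The further TCEA1 region was lower than the downstream median in each line, and the nearer one in KMS-12 and RPMI8226. The same held against the medians of regions with a start inside.

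Apart from each other, the TCEA1 regions had no listed neighbour close by. The next regions were 10.9 Mb away at POMK towards lower coordinates and 4.57 Mb away at NSMAF towards higher ones. Around the AFF1 region, the next was 3.45 Mb away at ABRAXAS1 on one side and 283 kb away in KLHL8, a gene that follows AFF1 on the chromosome, on the other. There the authors' deposited table listed -0.56 for KMS-11, -1.09 for KMS-12 and -0.88 for RPMI8226. KMS-12, the highest line at AFF1 though close to RPMI8226 there, was the lowest at KLHL8.

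Other genes of the elongation machinery were read from lists drawn up by role. Of 70 annotated genes, 5 (7.14%) had a listed region, namely TCEA1, AFF1, CDK13, DOT1L and POLR2H, against the 4.11% of all protein coding genes given above. The count includes TCEA1 and AFF1, which were chosen for having regions. When a line was left out, both others had to be past -0.5. In each case 3 of the 5 genes passed, but not the same ones. What share of all listed regions passed the same rule was not computed. TCEA1 and CDK13 passed in every case, POLR2H without KMS-11, AFF1 without KMS-12 and DOT1L without RPMI8226. This follows from the lines in which each gene's region was past -0.5 and is no separate check. By role, 1 of 5 TFIIS family genes and 1 of 11 of the super elongation complex had a region. Of 6 genes for P-TEFb and related kinases with their cyclins, 1 had a region. So did 1 of 5 genes listed as MLL and DOT1L partners of AFF1, DOT1L itself, and 1 of 13 RNA polymerase II subunits. The 4 annotated 7SK complex genes, 6 DSIF and NELF genes, 6 PAF1 complex genes, 4 histone chaperone genes, 3 Elongin genes and 3 little elongation complex genes had 0. For a gene without a listed region, the table cannot tell a failed filter from no measurement.

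CDK13, a kinase of the RNA polymerase II tail, was the one of these besides TCEA1 with a region past -0.5 in all 3 lines. The authors' deposited table gave -0.56 for KMS-11, -0.79 for KMS-12 and -0.51 for RPMI8226 over its start (chromosome 7, 39948486 to 39951970), which also overlapped CDK13-DT. This region, 3484 bp wide, was the widest of the list. POLR2H encodes a subunit shared by the RNA polymerases, and its region lay over a start (chromosome 3, 184361686 to 184363175). For it the authors' deposited table had -0.42 for KMS-11, -0.86 for KMS-12 and -0.71 for RPMI8226. Like the nearer TCEA1 region it was past -0.5 in KMS-12 and RPMI8226 but not in KMS-11.

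DOT1L encodes a histone H3 lysine methyltransferase known to bind MLLT1 and MLLT3, which also join the super elongation complex. Its region (chromosome 19, 2163179 to 2164545) crossed the gene boundary and also overlapped AP3D1, and the authors' deposited table had -0.69 for KMS-11, -0.61 for KMS-12 and -0.49 for RPMI8226. RPMI8226 was the line just outside the limit there. By their mean over the lines, POLR2H ranked 354, AFF1 380, CDK13 431 and DOT1L 498 of 838, all near the middle of the list, while the TCEA1 regions ranked 4 and 209. Among genes without a region of their own, KMT2A lay 3.76 kb and ELL 8.76 kb from the nearest listed region, which was assigned to other genes. These were the only genes of the lists without a region that lay within 10 kb of one.

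**Figure D4:**
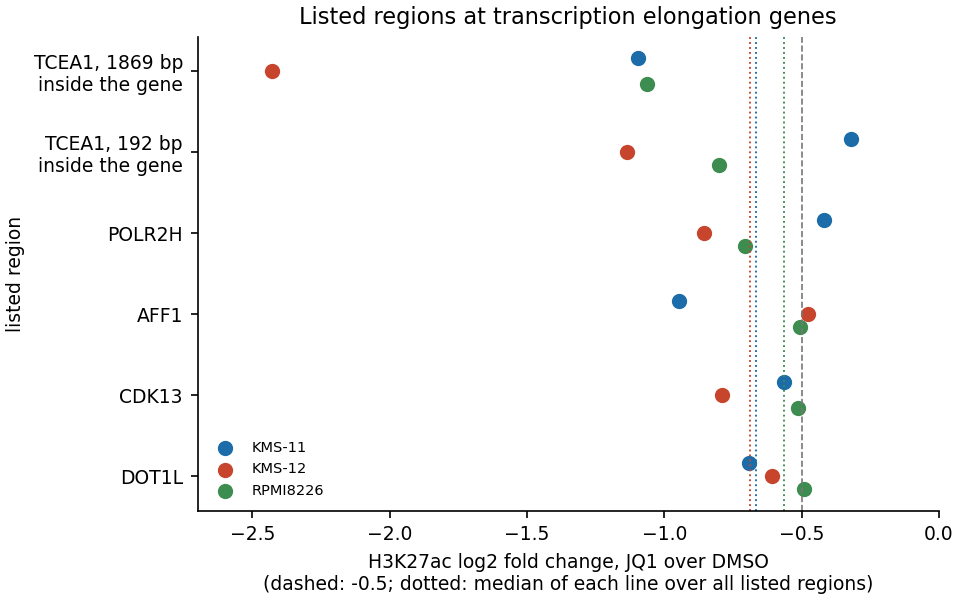
H3K27ac log2 fold change of JQ1 over DMSO (x axis) in each line (colour) for the listed regions at elongation genes (y axis, ordered by mean), with -0.5 dashed and each line's median over all listed regions dotted. Only the TCEA1 region 1869 bp inside the gene has all lines below -1, and CDK13, POLR2H, DOT1L and AFF1 have no value below -1.

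The regions most like each of these over the 3 lines were found by Euclidean distance between fold changes. For AFF1 they were at ACAP2, TENT5B, SLC1A4, CYP20A1 and LOC105375578, at distances of 0.037 to 0.11. In the authors' deposited table ACAP2 had -0.93 for KMS-11, -0.48 for KMS-12 and -0.54 for RPMI8226. For the nearer TCEA1 region they included those at RCAN1, CHCHD10 with LOC107985577, NETO2 with ITFG1-AS1, and ARRDC1, at 0.077 to 0.18. At RCAN1 the authors' deposited table listed -0.31, -1.18 and -0.87 in the same order of lines.

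The further TCEA1 region had no such close match. It lies where the list holds few regions, with only 13 below -2 in KMS-12. Whether other regions that low have closer matches was not examined. The regions most similar to the further TCEA1 region were at HAGHL, CLIP1, RTN3, LINC01719 and IRF4, at distances of 0.47 to 0.62. For HAGHL the authors' deposited table held -1.14 for KMS-11, -1.96 for KMS-12 and -1.14 for RPMI8226. For IRF4, the plasma cell transcription factor, the authors' deposited table gave -1.10, -1.81 and -1.07, 0.0067 and 0.0035 from the TCEA1 region in KMS-11 and RPMI8226, and 0.62 above it in KMS-12.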

How the data were processed

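H3K27ac ChIP-seq of 6 samples, 1 per line and treatment, was available as 1 table of 838 regions. It holds 1 log2 fold change per line, computed by the authors from those samples, and the number of lines in common; all of its columns were used. DESeq2, MACS2, hg38 and GRCh38.p13 are listed without roles in the submitters' processing notes. The sources used here name no aligner, peak setting or normalization. No counts were given, so depth is unknown. Without values per sample, no error, interval or test could be computed, and the planned comparisons were descriptions from the start.

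Regions were placed with Python 3.11.15 and pandas 2.3.3 on RefSeq GRCh38.p14 (20052 protein coding and 18330 lncRNA genes), whose chromosome coordinates are those of hg38. A region belonged to each gene it overlapped, otherwise to the gene with the nearest boundary. The assignment was tested on planted regions. Coordinates are printed as deposited.

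The genes, the elongation lists and the alternatives were chosen with earlier results of these data known. The text names TCEA1, AFF1, every list member with a listed region, genes sharing a member region, neighbouring listed regions, and the 5 regions with the smallest Euclidean distance over the 3 lines. Any other gene was named after its values were seen. One of these similar regions and 1 list are not reported here.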

Additional observations from a re-analysis of the deposited data

How the results depend on the processing

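No paired analysis was possible because each deposited value already sets JQ1 against DMSO within a line and no value per sample was given. With the fold limit at -1 in place of -0.5, AFF1 passed in 0 lines, the nearer TCEA1 region in 1 and the further one still in 3. With limits chosen after seeing the data, AFF1 passed in 3 lines at -0.45 and in 1 at -0.55. Each line minus its median over all regions left a mean of -0.0039 at AFF1, -0.11 at the nearer TCEA1 region and -0.89 at the further one. With a line left out, the means ranged from -0.73 to -0.49 at AFF1, from -0.97 to -0.56 at the nearer and from -1.76 to -1.08 at the further TCEA1 region. Requiring -0.5 in both remaining lines kept 2 of the 3 TCEA1 and AFF1 regions when KMS-11 or KMS-12 was left out and 1 when RPMI8226 was, with 3 of the 5 elongation genes in each case, AFF1 among them only without KMS-12. Below -1 in at least 2 lines, 1 region and 1 elongation gene were left. The shares of all listed regions kept under these settings were not computed. The counts with a line left out follow from the lines for which each region was listed, so they are no separate check. Assigning every gene within 1 kb, or overlapped genes only, left 3 regions and 5 genes. Scaling the distances by each line's SD kept 4 of the 5 most similar regions in each case. The number of samples and the unknown depth limit all values.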
